A study of Mus musculus with 10 samples.

Results

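The acute and the chronic injured spinal cord were compared through the pools taken 1 day and 3 weeks after injury, which account for 4 of the 10 samples, 1 at the gene level and 1 at the exon level for each time. All mice were wild-type ICR, an outbred stock, labelled as 4 weeks old, and the tissue was the T10 segment of the cord. The sham pool came from a sham operation with no time after surgery given, and the pools at 3 days and 1 week are shown only as further levels. RNA from 3 mice of a group was mixed by equal mass, so each time is 1 pool on 1 array per level, with no replicate, no test and no estimate of the spread between mice. The labels do not say whether the age is that at surgery or at collection, so age and time after injury cannot be told apart.

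All 11272 genes with a single symbol that passed a filter on low signal were compared. Signals are log2 values, and a gene was called higher or lower where 2 pools lay 2-fold or more apart, a difference of 1 on this scale. Beside the gene-level difference stands the median ± SD over the exon-level probe sets of the gene, the short probe groups that each cover part of an exon. That SD is the spread between probe sets on 1 pair of arrays. Median signals of the gene-level arrays lay between 4.52 at 1 day and 4.76 at 3 weeks, with 4.60 in sham. All 19 neuronal genes compared were above the filter level of 3.79 in every pool. In bulk tissue, fewer cells of a type and less RNA per cell cannot be told apart.

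After a spinal cord injury, blood cells enter the tissue within hours, microglia and astrocytes react, and dying cells and bleeding release lipid and haem. Later, macrophages that have taken up debris remain in the lesion, and fibroblasts of the meninges and vessel walls lay down collagen in a scar. Lymphocytes and antigen presentation belong mostly to the later phase.

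At 3 weeks, 1002 genes (8.89% of those compared) were at least 2-fold higher than at 1 day and 175 (1.55%) were lower. The median difference over all genes was 0.07, with quartiles of -0.03 and 0.39. Higher genes made up 85.1% of the calls as deposited, 70.8% after each array was centred on its median and 73.5% after quantile normalization, so the share of rises depends on the scaling. Centring lowered all differences by 0.24. Among the called genes with probe sets, 954 of 988 higher genes and 150 of 164 lower genes were also at least 2-fold apart in the same direction by the probe-set median, and 5 had the other sign.

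Setting each pool against sham separated the acute from the chronic pool. At 1 day 427 genes (3.79%) were higher than in sham and 461 (4.09%) lower. At 3 weeks 957 (8.49%) were higher and 383 (3.4%) lower. A gene was assigned to 1 day alone, as against 3 weeks, if it was at least 2-fold from sham at 1 day, less than 2-fold from sham at 3 weeks, and at least 2-fold apart between the 2 times. The converse rule gave 3 weeks alone. By this rule 95 genes (0.843%) were higher at 1 day alone and 109 (0.967%) lower at 1 day alone. At 3 weeks alone 523 genes (4.64%) were higher and 17 (0.151%) lower. At both times 270 genes (2.4%) were higher and 200 (1.77%) lower, and 37 (0.328%) lay on opposite sides of sham. These classes share the sham array, so a deviation of that 1 pool would move a gene at both times. Of the genes compared, 195 lay within 0.05 of the 2-fold limit between the pools.

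**Figure D1:**
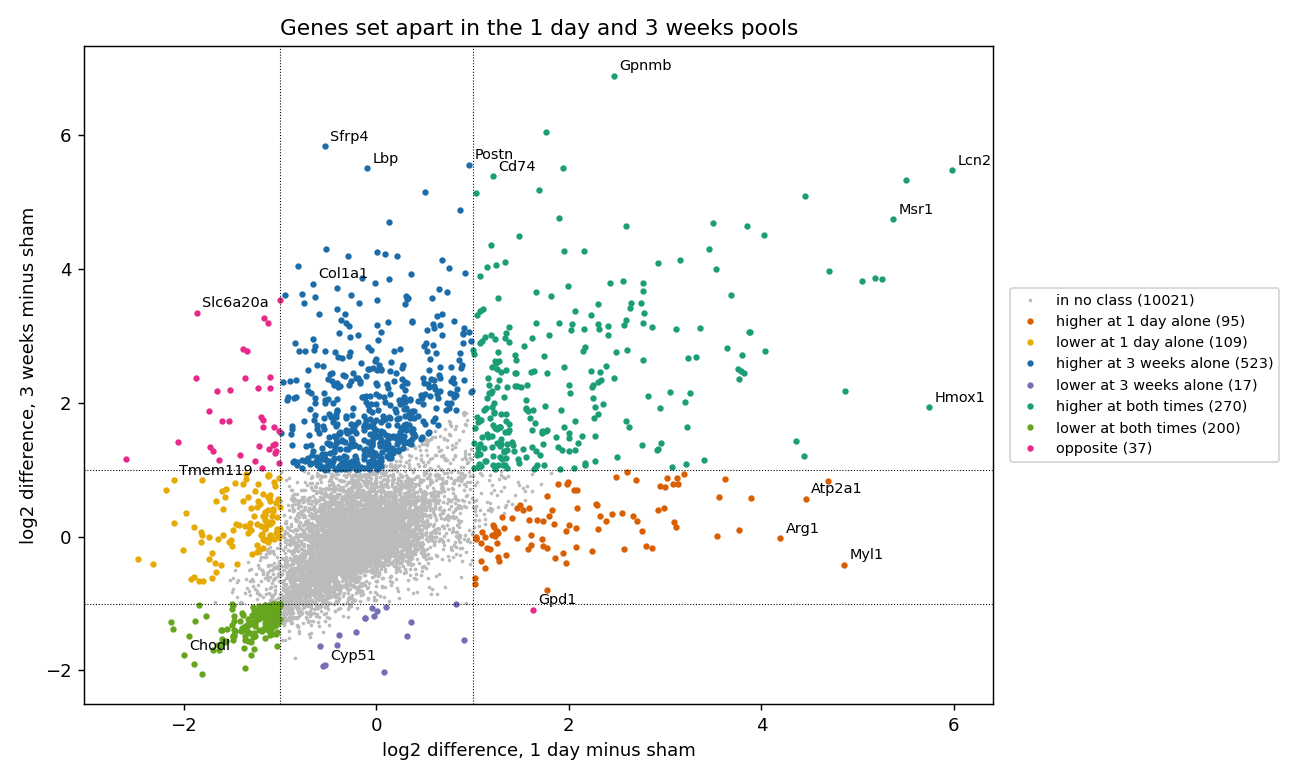
Each point is 1 of 11272 genes, with its log2 difference from sham at 1 day on the horizontal axis and at 3 weeks on the vertical axis, and dotted lines mark 2-fold. The chronic side of the plot holds 523 genes high at 3 weeks alone and 17 low, and 36 of the 37 genes on opposite sides of sham were low at 1 day and high at 3 weeks.

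The acute pool was marked by muscle transcripts, arginase and chemokines. The 10 genes most above their 3 week level at 1 day, counting only genes that had 4 or more probe sets and 75% or more of them with the sign of the gene, were Myl1, Arg1, Atp2a1, Acta1, Hmox1, Mylpf, Myot, Tnnt3, Tnnc2 and Trdn. Of these, 8 encode parts of the contractile or calcium-handling machinery of skeletal muscle. Myl1, a fast-muscle myosin light chain (transcript cluster 6759466), had log2 signals of 3.13 in sham, then 7.99, 6.34, 4.31 and 2.71 from 1 day to 3 weeks. It was thus high at 1 day and below the filter level in sham and at 3 weeks, with a difference of -5.28 (probe sets -5.87 ± 0.64, n = 10), and a fold over levels that low is rough. Acta1, skeletal actin, stood at 5.25 in sham, 9.95 at 1 day and 6.08 at 3 weeks, and Atp2a1, the calcium pump of fast muscle, at 4.07, 8.53 and 4.64. Every 1 of the 14 skeletal muscle genes compared was at least 2-fold lower at 3 weeks, with a median of -2.96, and 12 of them were high at 1 day alone. Their summed linear signal was 436 in sham, then 4219, 2182, 565 and 481 from 1 day to 3 weeks. This list was written with earlier results of these data known, so the choice of members may partly set its counts. Pvalb, which parvalbumin interneurons also express, was the member least apart (-1.23). Without members of the muscle list 83 genes remained high at 1 day alone, and the part that muscle tissue has in the rest was not tested.

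Olfactory receptor genes, sensory receptors of the nose, give a further view of this class. They were 69 of the 11272 genes compared (0.612%), but 8 of the 95 genes high at 1 day alone (8.42%) and 3 of the 17 low at 3 weeks alone (17.6%). They were 1 of the 523 genes high at 3 weeks alone. Of all 95 genes high at 1 day alone, 30 lay below the filter level in sham and 26 at 3 weeks. A gene near that level can pass the filter through 1 pool alone. The part of the filter in the olfactory shares was not tested.

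Outside muscle, Arg1 stood out in the acute pool. Arg1 encodes arginase 1, an enzyme that macrophages of the repair type make in the mouse (transcript cluster 6772815). Its signal was 3.84 in sham and 8.03, 9.61, 8.32 and 3.81 at the successive times after injury. It was back at the sham level at 3 weeks, with a difference of -4.22 between the 2 times (-3.65 ± 1.77, n = 10). Hmox1, the oxygenase that opens the haem ring, stood at 4.95 in sham, then 10.70, 10.89, 10.22 and 6.89 from 1 day to 3 weeks. It was above sham at both times but fell by 3.81 between them (-3.87 ± 0.37, n = 9). Of the 16 genes of haem and iron handling only Hmox1 and Hp, the haemoglobin-binding haptoglobin (-2.69), were at least 2-fold lower at 3 weeks. Slc40a1, the iron exporter ferroportin, went the other way with signals of 5.35 in sham, 3.54 at 1 day and 6.19 at 3 weeks (2.65, probe sets 2.47 ± 1.09, n = 10), as did Slc11a1, a metal transporter of phagosomes (2.29). The 1 day level of Slc40a1 lay below the filter level, so its fold is rough.

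Chemokines that draw monocytes were higher in the acute pool. Of 11 CC chemokine genes, 6 were at least 2-fold lower at 3 weeks and 1 was higher, with a median of -1.10. Ccl2, a main attractant of monocytes, had signals of 4.48 in sham, then 8.10, 8.61, 7.01 and 5.33 from 1 day to 3 weeks (-2.77, probe sets -3.21 ± 1.60, n = 7). Its relatives Ccl7 and Ccl12 both differed by -2.26, and Ccl3 by -1.32 from 9.67 at 1 day to 8.36 at 3 weeks. Ccl5, made by T cells among others, was the higher 1 (1.29), from signals below the filter level in sham and at 1 day. Among 10 CXC chemokines, Cxcl2 (-1.34) and Cxcl10 (-1.31) were lower at 3 weeks, while Cxcl16 (3.45), Cxcl13, the attractant of B cells (2.59), and Cxcl12 (1.53) were higher. Cxcl13 passed the filter on low values through the 3 weeks pool alone, so its call is partly set by the filter. Its 3 probe sets gave 4.37 ± 2.59, with 66.7% of them the same way. Other genes high at 1 day alone included the cell cycle inhibitor Cdkn1a (-2.14), the neuropeptide gene Gal (-1.95), the receptor gene Tnfrsf12a (-1.86), the interleukin 1 antagonist Il1rn (-1.60) and the pentraxin Ptx3 (-2.53). Of 16 heat shock and unfolded protein genes 0 were higher and 2 lower, and of 26 immediate early and stress transcription factors 3 were higher and 5 lower. These counts and those of the chemokines stand beside 8.89% higher and 1.55% lower among all genes compared. The share of higher stress transcription factors was near that of all genes. Myc fell by 1.57 and Atf3 by 1.24, whereas Nr4a1 was high at 3 weeks alone (1.47).

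Interferon-stimulated genes are shown with the DNA before their starts, because most of the list was above sham at both times while a few members were higher at 1 day. Of 15 members, 8 were at least 2-fold above sham at both times, 3 were lower at 3 weeks than at 1 day and 1 was higher. Rsad2, an antiviral enzyme, stood at 5.47 in sham, 6.73 at 1 day and 5.16 at 3 weeks (-1.56, probe sets -1.10 ± 1.08, n = 7). Ifit1, which binds foreign RNA ends, stood at 2.87, 6.64 and 5.38 (-1.26), and Irgm1, an immunity GTPase, at 4.58, 7.08 and 5.77 (-1.31). Gbp2 (3.64, 6.28 and 7.05) and Bst2 (4.80, 6.14 and 6.63), an antiviral membrane protein, were less than 2-fold apart between the times. Irf8, a transcription factor of microglia and macrophages, was high at 3 weeks alone (1.81).
The letters GAAANNGAA, part of the element bound by interferon-activated factors, were searched on both strands of the 250 bases before each start in RefSeq's GRCm38.p6 table, an assembly other than that of the submitters. They were present in 7 of 15 promoters of this list (46.7%), in 7.16% of all 27025 promoters and in 5.96% of those of the genes compared. Matches are in capitals below, overlapping ones as 1 run.
Ifit1 (chr19:34640769-34640828, + strand, 120 to 61 bases before the start): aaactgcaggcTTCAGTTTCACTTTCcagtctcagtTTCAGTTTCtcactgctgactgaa
Irgm1 (chr11:48871421-48871480, - strand, 60 to 1 bases before the start): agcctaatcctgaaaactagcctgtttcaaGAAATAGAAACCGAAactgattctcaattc
Gbp2 (chr3:142620573-142620632, + strand, 90 to 31 bases before the start): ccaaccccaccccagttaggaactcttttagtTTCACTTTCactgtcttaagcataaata
Bst2 (chr8:71537563-71537622, - strand, 150 to 91 bases before the start): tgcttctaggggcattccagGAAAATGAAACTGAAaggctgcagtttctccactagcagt
The match was thus present before genes that were lower at 3 weeks, Ifit1 and Irgm1, and before genes that were not, Gbp2 and Bst2. A match is a description of letters and not a bound site.

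Genes low at 1 day alone included markers of resting microglia and transporters of vessels. The 8 most apart under the probe-set rule were Slc40a1, P2ry12, Slco1a4, Ccdc3, Stoml3, Pde7b, Lpar4 and Mc5r. P2ry12, the nucleotide receptor that marks resting microglia, had signals of 7.31 in sham and 5.33, 7.34, 7.36 and 7.67 at the successive times after injury (2.34, probe sets 2.22 ± 1.02, n = 6). Only the 1 day pool was low. Of the 13 microglial genes compared, 9 were at least 2-fold below sham at 1 day and 0 at 3 weeks. At 3 weeks 8 were at least 2-fold above their 1 day level and 0 below, with a median of 2.10. Tmem119, a further microglial marker, was at 5.25 in sham, 3.14 at 1 day, below the filter level, and 6.09 at 3 weeks, on 2 probe sets. The growth factor receptor Csf1r (7.71, 6.54 and 9.35), the fractalkine receptor Cx3cr1 (6.41, 5.24 and 8.16) and P2ry13 (6.71, 5.01 and 7.98) crossed from below sham at 1 day to above it at 3 weeks. Gpr34 did so too (2.94, 1.87 and 4.57), but its sham and 1 day signals lay below the filter level. Its probe sets gave -0.75 ± 0.19 (n = 3) for 1 day minus sham, less than 2-fold. At 1 day 3 of the 13 microglial genes lay below the filter level. Fcrls, in contrast, was above sham at both times, at 6.83 and 6.90.

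Of 24 endothelial genes 4 were at least 2-fold above sham at 1 day and 3 below. Each of the 3 low genes encodes a transporter of the blood-brain barrier. Slco1a4, an organic anion carrier of brain endothelium, stood at 6.90 in sham, then 4.79, 5.61, 5.37 and 7.11 from 1 day to 3 weeks (2.31, probe sets 1.93 ± 0.84, n = 19), so it was low at all 3 earlier times. Slco1c1, a thyroid hormone carrier, stood at 7.48, 5.0 and 7.16 in sham, at 1 day and at 3 weeks. Abcb1a, the efflux pump P-glycoprotein, stood at 6.52, 5.0 and 8.26 (3.26, probe sets 3.12 ± 1.23, n = 30). These and the adhesion gene Vcam1 (1.57) were the 4 of 24 endothelial genes at least 2-fold higher at 3 weeks, and 0 were lower. The vessel markers Pecam1 (6.06, 7.32 and 6.68) and Cldn5 (5.55, 5.09 and 6.05) were less than 2-fold apart between 1 day and 3 weeks. Pecam1 was more than 2-fold above sham at 1 day. The barrier transporters Mfsd2a, a lipid carrier (8.73, 8.53 and 7.94), and Slc2a1, a glucose carrier (9.17, 9.61 and 9.07), were not 2-fold apart either, and both stood lower at 3 weeks than at 1 day. The median of the list was 0.07. That median turned negative after centring (-0.17) and quantile normalization (-0.12).

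Of 17 genes of resting astrocytes 4 were at least 2-fold below sham at 1 day, and 2 of these were low at 1 day alone. Gja1, the main astrocyte gap junction gene, had signals of 9.52 in sham, 8.28 at 1 day and 9.97 at 3 weeks (1.69, probe sets 1.73 ± 0.41, n = 3). Slc1a3, a glutamate transporter, stood at 7.98, 7.10 and 8.59, and Aqp4, the water channel of astrocyte endfeet, at 10.26, 9.81 and 11.06. Aldh1l1, a folate enzyme that marks astrocytes, was at 6.67, 6.82 and 6.67. Of the 17 astrocyte genes 6 were higher at 3 weeks than at 1 day and 0 lower. The number was 3 after centring and 5 after quantile normalization. In the oligodendrocyte lineage Gpr17, a receptor of late precursors, stood at 8.13, 5.81 and 7.72, and Aspa, which cleaves N-acetylaspartate, at 8.23, 6.57 and 7.71.

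**Figure D2:**
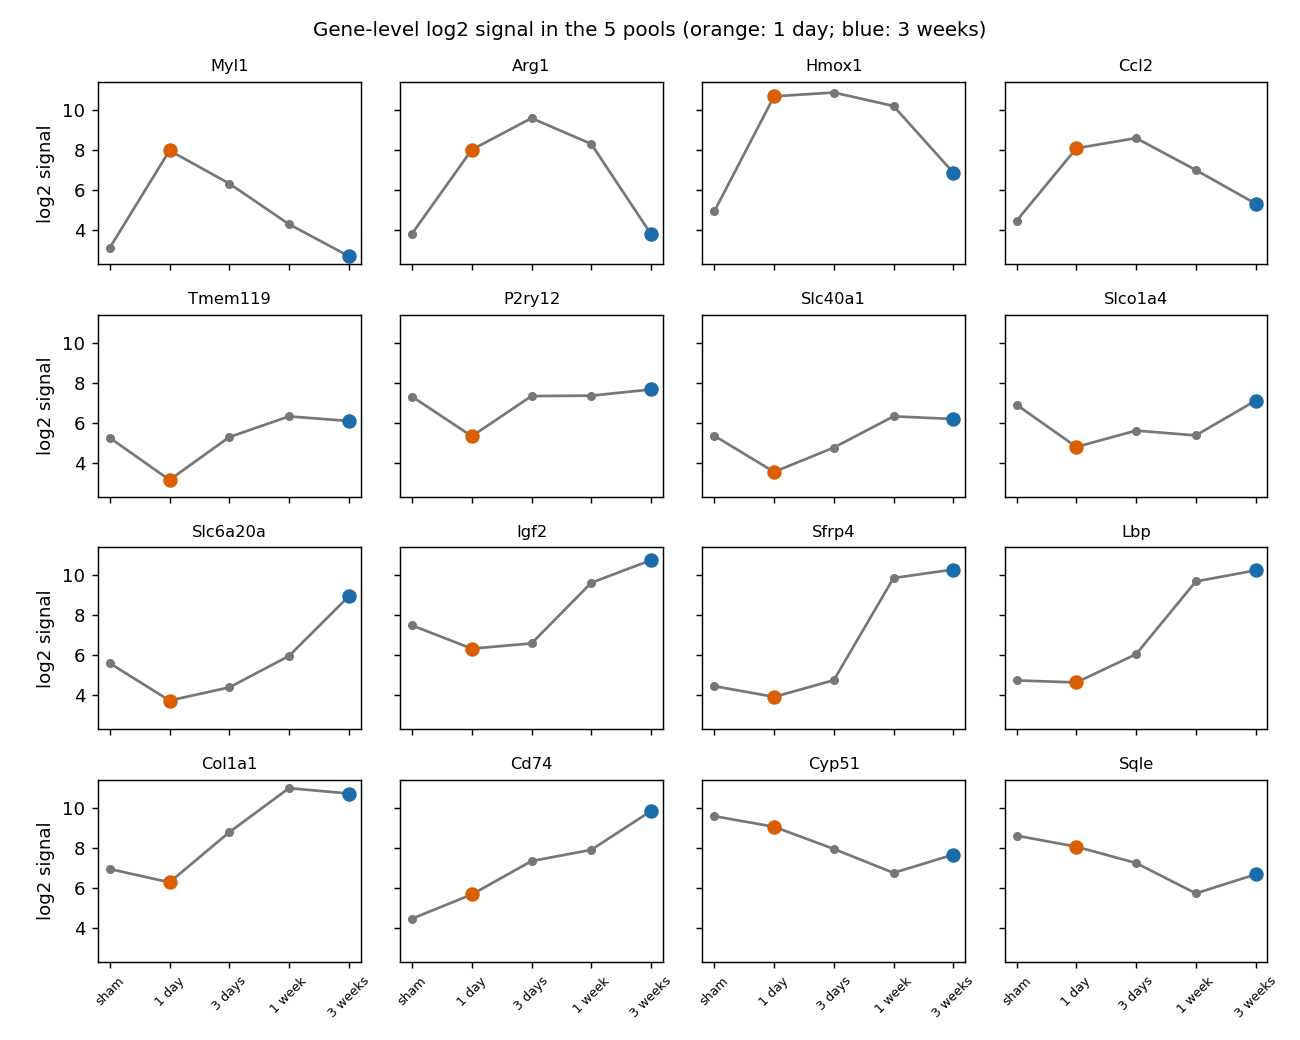
Gene-level log2 signal of 16 genes in the 5 pools, with 1 array per pool, 1 day in orange and 3 weeks in blue. Myl1 and Arg1 return to their sham level at 3 weeks, P2ry12, Tmem119 and Slco1a4 are lowest at 1 day, and Sfrp4, Lbp and Col1a1 are less than 2-fold from sham at 1 day and higher at 1 week and 3 weeks than in the other 3 pools.

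The chronic pool was marked above all by genes of fibroblasts, meninges and matrix. The 10 genes highest at 3 weeks against 1 day under the probe-set rule were Sfrp4, Lbp, Slc6a20a, Itih2, Itgbl1, Postn, Islr, Slc13a4, Anpep and Col1a1. Sfrp4, a secreted Wnt antagonist (transcript cluster 6805134), had signals of 4.46 in sham, then 3.92, 4.76, 9.87 and 10.29 from 1 day to 3 weeks. The first 3 pools were low and the last 2 high, and 3 weeks was 82.7-fold above 1 day (6.37, probe sets 6.90 ± 2.32, n = 7). Lbp, which binds bacterial lipopolysaccharide, stood at 4.74, 4.64, 6.06, 9.69 and 10.25 in the same order (5.60, probe sets 6.11 ± 1.42, n = 19). Postn, which encodes the matrix protein periostin, stood at 3.58, 4.54, 6.09, 10.68 and 9.14, highest at 1 week. Itih2, whose product links to hyaluronan, was at 3.09 at 1 day, below the filter level, and at 7.95 at 3 weeks. Islr, a gene of stromal cells, was at 4.98 and 9.54.

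**Figure D3:**
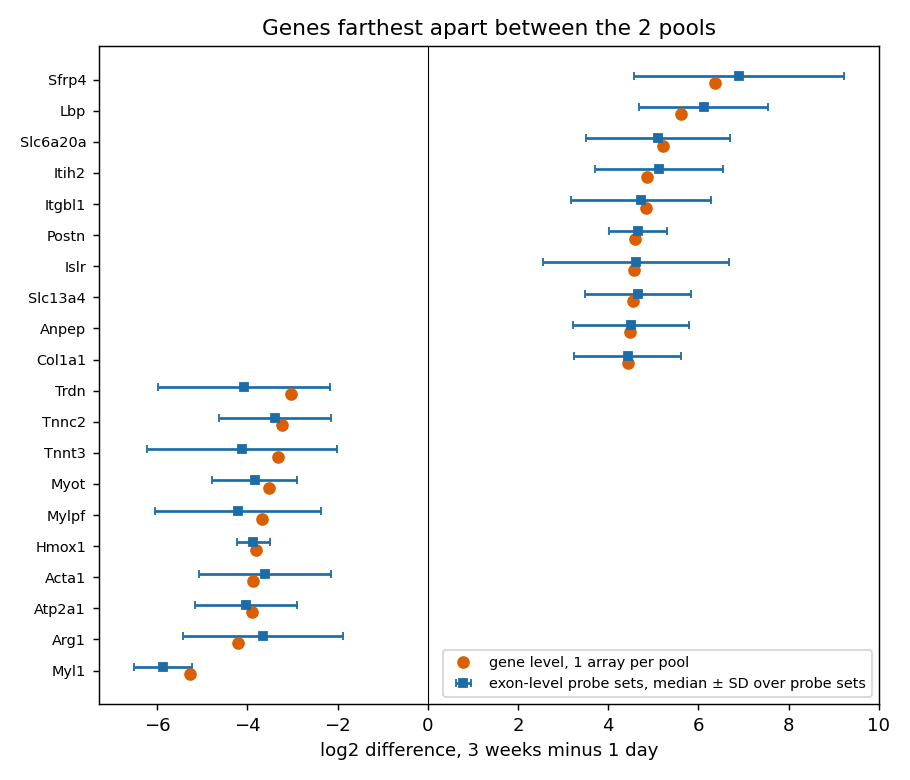
Log2 difference of 3 weeks minus 1 day for the 10 genes most above and the 10 most below, as the gene-level value (circles) and as the median ± SD over exon-level probe sets (squares). In all 20 genes both lie on the same side of 0, from 6.37 for Sfrp4 to -5.28 for Myl1.

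Every 1 of the 22 genes of fibroblasts and meninges was at least 2-fold higher at 3 weeks than at 1 day, with a median of 3.75, and 17 of them were high at 3 weeks alone. Their summed linear signal was 2114 in sham and 1782, 1884, 7362 and 13643 at the successive times after injury. The members of this list were chosen with earlier results of these data known, so that choice may partly set the counts. Col1a1 and Lum were at least as high at 1 week as at 3 weeks. Col1a1, the main fibrillar collagen, stood at 6.94 in sham, then 6.28, 8.78, 10.99 and 10.72 from 1 day to 3 weeks (4.44, probe sets 4.43 ± 1.18, n = 53). Lum, which encodes the collagen-binding lumican, was at 9.60 at 1 week and 8.97 at 3 weeks. Transporters of the meninges, in contrast, stood higher at 3 weeks than at 1 week. Slc6a20a, an amino acid transporter, had signals of 5.60, 3.74, 4.39, 5.97 and 8.95 in time order from sham (5.21, probe sets 5.10 ± 1.60, n = 12). The sulfate transporter Slc13a4 was at 5.05 at 1 week and 8.02 at 3 weeks, Slc47a1 at 4.77 and 8.0, Slc22a8 at 5.52 and 8.22, and Slc6a13 at 6.39 and 8.46. The share of meninges taken with the cord in each pool was not measured, and its part in these levels was not tested.

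Of 20 collagen genes 15 were higher at 3 weeks than at 1 day and 0 lower (median 2.15), and 14 were high at 3 weeks alone. The basement membrane collagen Col4a1 was already above sham at 1 day, at 7.08 against 5.80, and at 7.44 at 3 weeks. Among 23 proteoglycan and matricellular genes 14 were higher and 1 lower. The lower 1 was Tnc, tenascin C, at 5.15 in sham, 8.11 at 1 day and 7.07 at 3 weeks (-1.03, probe sets -1.04 ± 0.46, n = 29). Of 20 metalloproteinases and inhibitors 9 were higher, led by Mmp12 (3.98) and Mmp2 (3.08), and the inhibitor Timp1 was lower (-1.41). In TGF-beta and BMP signalling 11 of 21 genes were higher and 0 lower, with Bmp4 (2.64), Bmp5 (2.60) and the receptor Tgfbr1 (2.45) in front. Among Wnt ligands, receptors and antagonists 11 of 22 were higher and 0 lower, Fzd7 by 2.38. After centring 6 and 5 of them were higher, and 1 gene of the TGF-beta list was lower. Schwann cell genes were higher in 4 of 11 cases, led by the sodium channel gene Scn7a at 3.14 at 1 day and 6.58 at 3 weeks (3.44, probe sets 3.46 ± 0.80, n = 28). The 1 day level of Scn7a lay below the filter level, so its fold is rough. The summed signal of the Schwann cell genes was 5165 in sham, 5070 at 1 day and 5718 at 3 weeks, and Scn7a is also found outside Schwann cells. After centring or quantile normalization 2 of the 11 were higher.

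Genes of antigen presentation and complement stood higher in the chronic pool. Cd74, the invariant chain of MHC class II, stood at 4.46 in sham, then 5.67, 7.34, 7.90 and 9.84 from 1 day to 3 weeks (4.17, probe sets 4.16 ± 1.13, n = 14). It was above sham at every time and highest at 3 weeks. Of 8 class II genes 5 were higher at 3 weeks than at 1 day and 0 lower, with a median of 2.02. The chain genes H2-Aa (5.70 at 1 day and 8.46 at 3 weeks) and H2-Ab1 (5.26 and 7.89) were among them. Class I genes moved less, with 3 of 8 higher (median 0.87). Serping1, the inhibitor of the first complement component, was at 6.05 in sham, 6.92 at 1 day and 10.93 at 3 weeks (4.01, probe sets 3.93 ± 0.40, n = 9). The 3 genes of the C1q subunits differed by 2.98 (C1qa), 2.93 (C1qc) and 2.13 (C1qb), and in all 8 of 11 complement genes were higher and 0 lower.
The promoter of H2-Aa is shown because class II promoters hold a Y box, ATTGG, downstream of an X2 motif with TGACG, read on either strand. Capitals mark these letters, and TGACGTCA holds TGACG on both strands.
H2-Aa (chr17:34287844-34287923, - strand, GRCm38.p6, 100 to 21 bases before the start): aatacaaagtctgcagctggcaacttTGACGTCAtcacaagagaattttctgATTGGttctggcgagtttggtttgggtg
Both letter groups together were found in 6.39% of all promoters in the table and in 9.86% of those of the genes compared. Of the 8 class II genes 4 had an entry in the table, and H2-Aa was the 1 that held both.

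Lymphocyte genes were near the limit of the array. Cd3g, a chain of the T cell receptor complex, had signals of 1.99 in sham, 2.09 at 1 day and 4.00 at 3 weeks, on 2 probe sets. Cd4 was at 3.18 at 1 day and 4.21 at 3 weeks. All T cell genes but these 2 were less than 2-fold apart, 2 of 9 being higher. Cd3g and Cd3e passed the filter on low values through the 3 weeks pool alone, so the counts of this list are partly set by the filter. Of 18 B and plasma cell genes listed 4 were compared, and 0 differed by 2-fold.

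Of 17 macrophage genes 7 were higher at 3 weeks and 1, Arg1, was lower, and 10 were above sham at both times. Gpnmb, a gene of lipid-laden macrophages, stood at 3.78 in sham and 6.25, 10.08, 12 and 10.66 at the successive times after injury (4.42, probe sets 4.47 ± 0.74, n = 16). Atp6v0d2, part of a proton pump, was at 4.47 at 1 day and 8.76 at 3 weeks. Msr1, a scavenger receptor, was up at both times, at 7.77 and 7.14 against 2.40 in sham. In lysosome and lipid handling 13 of 23 genes were higher at 3 weeks and 0 lower, with Ctsh, a lysosomal protease (3.67), Trem2, a lipid-sensing receptor (3.50), and the cholesterol exporter Abca1 (3.05) in front, and 12 of the 23 were high at 3 weeks alone.

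Neutrophil genes split. Cxcr2, the receptor that brings neutrophils into tissue, was at 3.29 in sham, 6.51 at 1 day and 4.37 at 3 weeks (-2.14, probe sets -2.46 ± 0.55, n = 4), and Il1r2 (-1.32), Clec4e (-1.13) and Retnlg (-1.11) were lower at 3 weeks as well. Of the genes of granule proteins some were higher at 3 weeks. Ngp, neutrophilic granule protein, stood at 4.67 in sham, then 4.03, 7.29, 6.56 and 8.25 from 1 day to 3 weeks (4.22, probe sets 4.08 ± 0.61, n = 5). Mpo, myeloperoxidase, was at 3.99 at 1 day and 5.47 at 3 weeks (probe sets 2.67 ± 0.81, n = 10), Ltf, lactoferrin, at 3.89 and 5.34, Camp at 5.01 and 6.09, and Elane at 3.82 and 4.95 with no probe set. The granule genes Lcn2 (-0.51), Mmp9 (0.00) and Mmp8 (0.42) were less than 2-fold apart. The receptor gene Csf3r (1.19), unlike Cxcr2, was higher at 3 weeks, as was S100a9 (1.16), while S100a8 (0.94) was less than 2-fold apart. In all 7 of 17 neutrophil genes were higher at 3 weeks and 4 lower. After centring these counts were 3 and 5, and Camp, Elane, Csf3r and S100a9 were no longer 2-fold apart.

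**Figure D4:**
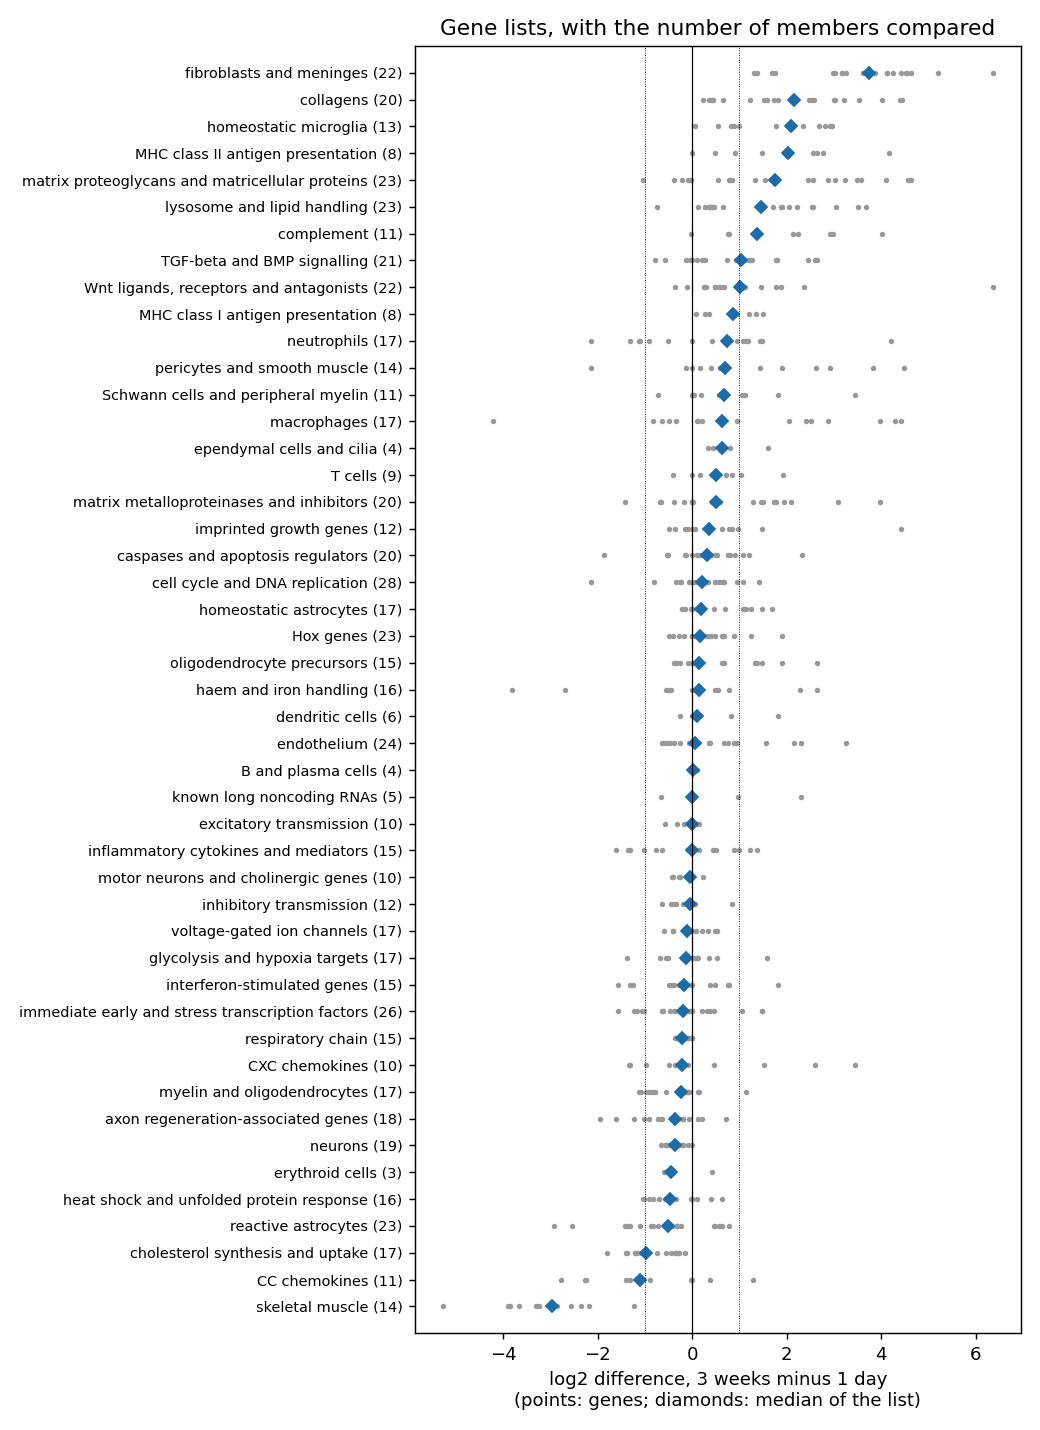
Log2 difference of 3 weeks minus 1 day for the members of 47 gene lists (grey points) and the median of each list (diamonds), ordered by median, with the number of members compared in brackets and dotted lines at 2-fold. Fibroblast and meningeal genes (3.75) lie at the top and skeletal muscle genes (-2.96) at the bottom, and neuronal lists lie within 2-fold.

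The few genes low at 3 weeks alone included genes of cholesterol synthesis, which oligodendrocytes and astrocytes use to build membrane. Of the 17 genes in this class 8 were on the cholesterol list and 3 were olfactory receptors. Of the 17 genes of that list compared 8 were at least 2-fold lower at 3 weeks than at 1 day and 0 higher (median -0.97). Hsd17b7, an enzyme of sterol synthesis, had signals of 8.03 in sham, then 8.35, 7.60, 6.20 and 6.55 from 1 day to 3 weeks (-1.80, probe sets -1.90 ± 0.40, n = 12). Cyp51, which demethylates lanosterol, stood at 9.58, 9.05, 7.95, 6.75 and 7.66 in the same order (-1.39, probe sets -1.63 ± 0.35, n = 13). In both, 1 day was near sham and the lowest pool was that at 1 week. Sqle (-1.39), Msmo1 (-1.21), Sc5d (-1.20), Fdft1 (-1.16), Nsdhl (-1.07) and Hmgcs1 (-1.05) completed the group. Mvd, of the early mevalonate steps, was low at both times instead, at 6.12 and 5.84 against 7.50 in sham. Mog, a myelin surface protein, was in the same class (10.67, 10.68 and 9.56), whereas 17 myelin genes as a whole had 1 higher and 2 lower between the times. After centring 7 myelin genes were lower and 0 higher, and after quantile normalization 5 and 0. Bcat1, which breaks down branched amino acids, differed by -1.83 (-1.76 ± 0.38, n = 16). Anapc13 met the rule for named genes with -2.11, but its probe sets gave -0.38 ± 1.46 (n = 4), so the size of its difference is not settled.
The promoters of 3 of these enzymes are shown to set their letters beside the results. Capitals mark TCACNCCAC, a form of the sterol response element, in Hmgcs1, and ATTGG with TGACG, on either strand, in the others.
Hmgcs1 (chr13:119690191-119690250, + strand, GRCm38.p6, 160 to 101 bases before the start): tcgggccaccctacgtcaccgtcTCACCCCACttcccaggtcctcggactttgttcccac
Cyp51 (chr5:4104708-4104817, - strand, 120 to 11 bases before the start): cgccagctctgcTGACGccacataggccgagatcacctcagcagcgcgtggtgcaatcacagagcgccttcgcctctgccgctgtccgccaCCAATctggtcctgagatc
Hsd17b7 (chr1:169969206-169969295, - strand, 90 to 1 bases before the start): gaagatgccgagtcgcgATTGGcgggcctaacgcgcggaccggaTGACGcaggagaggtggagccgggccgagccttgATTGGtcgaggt
The sterol letters were found in 1 of the 14 promoters of the cholesterol list in the table and in 1.04% of all promoters. ATTGG with TGACG was found in 7 of the 14, against 6.39% of all promoters and 9.86% of those of the genes compared. Holders of the pair include Srebf2, Ebp and Insig1, which were less than 2-fold apart between the times.

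Of the 270 genes high at both times, 63 were at least 2-fold higher at 3 weeks than at 1 day, 29 were lower and 178 were less than 2-fold apart. Lcn2, the iron-sequestering lipocalin 2, stood at 5.48 in sham, 11.46 at 1 day and 10.95 at 3 weeks, and fell to 8.22 at 1 week in between. Sprr1a, an injury gene of axons, was at 3.84, 9.35 and 9.16, and Lgals3, galectin 3 of phagocytes, at 4.39, 8.84 and 9.48. Of 23 genes of reactive astrocytes 18 were above sham at both times, and 7 of the 23 were at least 2-fold lower at 3 weeks than at 1 day and 0 higher (median -0.51). Tgm1, a transglutaminase, was at 8.23 at 1 day and 5.30 at 3 weeks, and Nes, nestin, at 6.73 and 5.33. Gfap, the astrocyte filament gene, was at 10.93 in sham, 11.24 at 1 day and 11.81 at 3 weeks, less than 2-fold apart throughout. Of 18 regeneration-associated genes 4 were lower at 3 weeks and 0 higher, among them the tubulin gene Tubb6 (-1.62).

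The 200 genes low at both times were all less than 2-fold apart between 1 day and 3 weeks. Their median signal was 7.02 in sham and 5.78, 5.37, 4.56 and 5.72 at the successive times after injury, so the medians at 1 day and 3 weeks were close and the 1 week pool was lowest. The median difference of the class between 1 day and 3 weeks was 0.0, and some members had identical deposited values at both times. Of the 196 members with probe sets, 134 were at least 2-fold below sham at 1 day by the probe-set median. By the same measure 0 were 2-fold apart between 1 day and 3 weeks. Chodl, a marker of fast motor neurons, stood at 7.04, 5.04, 3.78, 3.85 and 5.27. The choline transporter gene Slc5a7 was at 7.44 in sham, 6.40 at 1 day and 5.98 at 3 weeks. Of 19 neuronal genes, 10 of excitatory transmission, 12 of inhibitory transmission, 17 of ion channels and 10 of motor neurons, 0 differed by 2-fold between the times, with medians from -0.37 to -0.00. Against sham, 4.09% of all genes compared were at least 2-fold lower at 1 day and 3.4% at 3 weeks. Of the 19 neuronal genes 1 was lower at 1 day, a share near that of all genes, and 8 at 3 weeks (medians -0.51 and -0.96). These counts were 4 and 5 for excitatory transmission and 3 and 6 for inhibitory transmission. They were 8 and 9 for ion channels and 3 and 3 for motor neurons. Elavl4, a neuronal RNA-binding protein, had the same deposited value of 6.77 at both times, against 8.24 in sham.

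**Figure D5:**
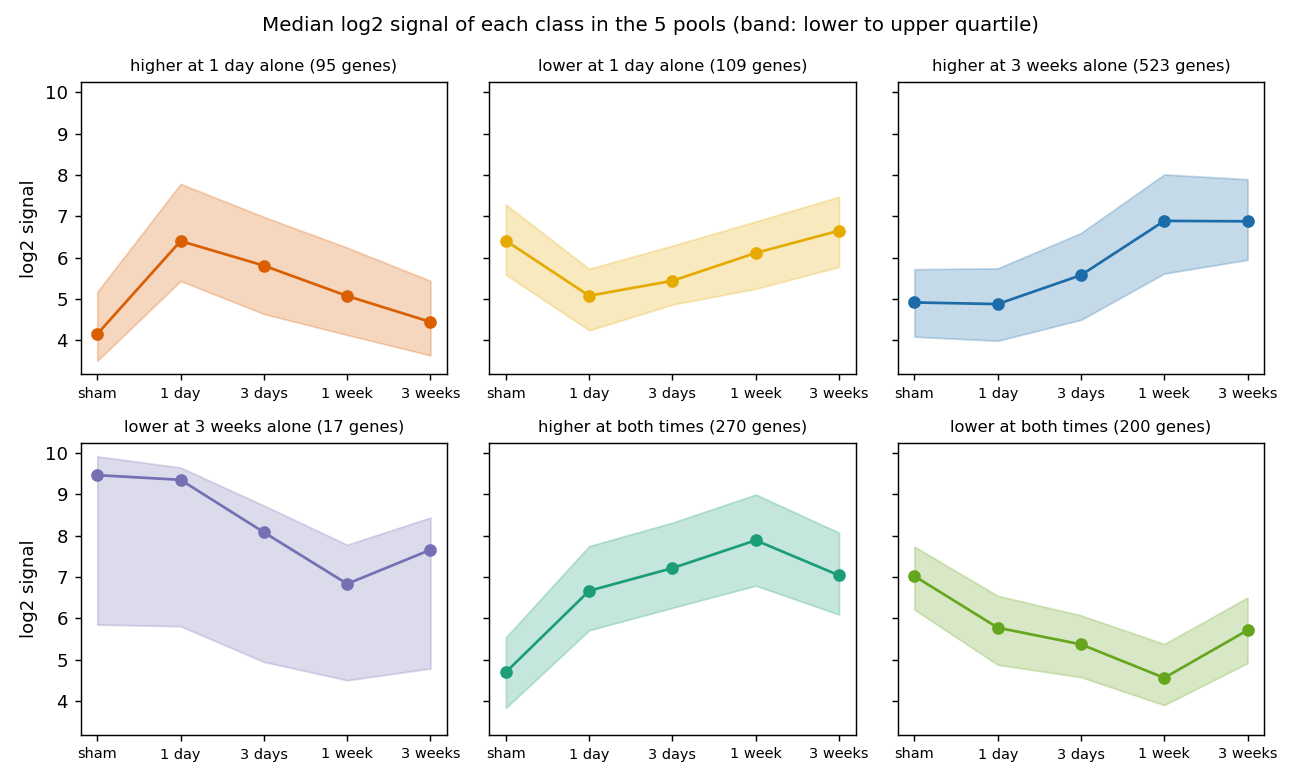
Median log2 signal of the genes of 6 classes in the 5 pools, with a band from the lower to the upper quartile. Genes high at 1 day alone have medians of 6.40 at 1 day and 4.45 at 3 weeks, genes high at 3 weeks alone 4.88 and 6.88, and genes low at both times 5.78 and 5.72.

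The class medians place the pools between them in time, as levels and not as further evidence, since the classes were cut on 3 of the 5 arrays. Genes high at 1 day alone had medians of 4.16 in sham, 6.40, 5.81, 5.08 and 4.45. Genes low at 1 day alone had 6.41, 5.08, 5.44, 6.12 and 6.65. Genes high at 3 weeks alone had 4.92, 4.88, 5.58, 6.89 and 6.88, so the 1 week pool was at their chronic level. Their middle times were not part of the rule.

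Among the remaining lists, mural and proliferation genes had single members far apart. Of all genes compared, 8.89% were at least 2-fold higher at 3 weeks than at 1 day and 1.55% lower. Of 14 genes of pericytes and smooth muscle 6 were higher at 3 weeks, among them the peptidase gene Anpep (4.48), the adhesive protein gene Vtn (3.83) and smooth muscle actin Acta2 (2.92). The 1 lower gene was Des, desmin, which skeletal muscle also makes, at 4.01 in sham, 6.39 at 1 day and 4.25 at 3 weeks. Of 28 cell cycle genes 2 were higher, a share near that of all genes, and 1 lower. Ccna2, cyclin A2, stood at 4.43 in the 1 day pool and 5.85 in the 3 weeks pool, and higher in between (8.21, then 8.87). Of 20 caspases and apoptosis regulators 3 were higher, with Casp12 in front (2.34), and 1 lower. After centring 1 was higher and 1 lower, and of the cell cycle genes 1 was higher and 2 lower. Of 15 oligodendrocyte precursor genes 5 were higher and 0 lower. Of 17 genes of glycolysis and hypoxia Ndrg1 was higher (1.59) and Adm, adrenomedullin, lower (-1.37), although the 3 probe sets of Adm gave -0.05 ± 0.76. Of 23 Hox genes, which mark position along the cord, only Hoxc6 (1.91) and Hoxc5 (1.25) were higher, a share near that of all genes. Among 15 respiratory chain genes and 3 erythroid genes 0 differed by 2-fold.

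The series also profiles noncoding RNA, and 70 annotated noncoding genes were compared. At 3 weeks 3 were at least 2-fold higher than at 1 day and 3 lower, beside 8.89% and 1.55% of all genes compared. The higher ones were Airn, the antisense transcript of the imprinted Igf2r region (4.42 at 1 day and 6.72 at 3 weeks, with no probe set), 9630028B13Rik (3.74 and 5.61) and D130007C19Rik (3.84 and 5.43). Whether Airn signal includes transcripts of the gene it overlaps was not tested. The lower ones were Olfr915, by its symbol an olfactory receptor gene (-1.43), Snhg5, a host of small nucleolar RNAs (-1.20), and B430209F14Rik (-1.05). B430209F14Rik passed the filter on low values through the 1 day pool alone (4.20) and had no probe set. Its call is therefore partly set by the filter. H19, an imprinted RNA, was above sham at both times, at 4.42 in sham, 7.58 at 1 day, 10.61 at 1 week and 8.55 at 3 weeks. Its neighbour Igf2, a growth factor gene, stood at 7.50, 6.33, 9.63 and 10.76 in those pools.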

How the data were processed

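The authors deposited log2 signals of Affymetrix arrays, 1 per transcript cluster (23332, gene level) and 1 per probe set (229581, exon level), from 5 RNA pools of 3 mice each. Per the submitters' processing notes, GCOS and the mm8 build were used, and no source used here gives the normalization. The log base is not stated: the highest gene-level value would be 7752 in base 2 and 408575 with the natural logarithm, above the 65535 a scanner records, so base 2 was taken. Whether both levels summarise the same hybridisations is not stated either, and they were not averaged.

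Clusters with 1 symbol in the platform annotation (14996, with 14941 updated through RefSeq gene identifiers) were kept if their highest value reached the 40th percentile (3.79), and of several clusters of a symbol the one with the highest mean was used. This left 11272 genes. Probe sets at or above 4.85 on at least 1 array gave medians and SDs, with a median of 10 per gene. Differences of at least 2-fold were called, with no test, since each group is 1 pool, and the number of arrays limits the precision.

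The named genes are the 10 highest and 10 lowest between the times, the 8 most apart in each of 4 classes, 4 high and 4 low at both times, 6 on opposite sides of sham, up to 3 highest and 3 lowest of each of 47 lists, and 5 noncoding genes each way. Other list members are named as such. The members and lists were chosen with earlier results of these data known. The classification was tested on simulated data. Alternatives were other scalings, filters, folds and summaries. Python 3.11.15 with pandas 2.3.3, numpy 2.4.6 and matplotlib 3.10.9 was used.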

Additional observations from a re-analysis of the deposited data

Results flagged for a closer look

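Among the 37 genes on opposite sides of sham, the 6 with the largest difference between 3 weeks and 1 day were Slc6a20a (5.21), Slc13a4 (4.54), Igf2 (4.43), Mfap4 (4.32), A2m (4.25) and Ecm2 (4.18). In each, the only array at 1 day lay at least 2-fold below sham and the only array at 3 weeks at least 2-fold above it. The difference was not tested, since each time is 1 pool. At 1 day Slc6a20a (3.74), Slc13a4 (3.49) and Ecm2 (3.60) were below the filter level of 3.79, so the size of their drop from sham is rough. Gpd1, an enzyme of glycerol phosphate metabolism, was the 1 gene that went the other way, at 8.85 in sham, 10.47 at 1 day and 7.75 at 3 weeks.

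Transcript clusters with no symbol or several were left out of the comparison. Of the 3821 that passed the filter, 130 were at least 2-fold above both sham and 1 day at 3 weeks, and 104 were at least 2-fold above both sham and 3 weeks at 1 day.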

How the results depend on the processing

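No paired analysis was possible because each group is 1 pool, so the shared replicate number 1 marks no pairs. Without a filter, with a filter at the 50th percentile, or with the mean of the clusters of a symbol, all counts stayed within 1.5 times those reported. Centring gave 292 genes lower at 3 weeks than at 1 day and 41 low at 3 weeks alone. Quantile normalization gave 264 lower, 60 low at 1 day alone, 104 low at both times and 24 on opposite sides of sham. The median over probe sets gave 190 low at 1 day alone. An alternative chosen after seeing the data, quantile normalization of the exon-level table with the median over probe sets, gave 451 lower, 186 high at 1 day alone, 69 low at 3 weeks alone, 92 low at both times and 24 opposite, and 65.4% of its calls were higher. A limit of 1.5-fold gave 1952 higher and 459 lower genes, 166 high and 395 low at 1 day alone, 788 high and 101 low at 3 weeks alone, 516 high and 952 low at both times, and 173 opposite. A limit of 3-fold gave 450 and 74, 59 and 23, 292 and 1, 110 and 7, and 5 in the same order. For the scalings and the probe-set medians the cause was not tested. Under these alternatives 0 results changed direction among called values. The medians of 8 of the 47 lists changed sign under at least 1 of them, those of haem and iron handling, B and plasma cells, dendritic cells, endothelium, oligodendrocyte precursors, resting astrocytes, cell cycle and Hox genes. The number of arrays, 1 per pool, limits the precision, and levels below 3.79 say little about size.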

Other observations

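Genes of the circadian clock were looked at after their values were seen. Of 19 listed, 14 were compared. Dbp, Hlf and Per3, clock output and period genes, were low at 1 day alone. Dbp had signals of 8.70 in sham, then 7.02, 7.31, 7.37 and 8.31 from 1 day to 3 weeks (1.29, probe sets 1.21 ± 0.87, n = 10). Hlf stood at 6.89, 5.73, 5.47, 5.32 and 7.03, and Per3 at 5.80, 4.72, 4.87, 5.13 and 6.02. Nfil3, a repressor that binds the same DNA sites as Dbp and Hlf, was high at 1 day alone, at 5.29 in sham, 6.54 at 1 day and 5.38 at 3 weeks. Arntl and Clock differed by -0.05 and -0.01. The sources used here give no time of day for the tissue, and its part in these values was not tested.

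At the gene level 1499 of the 11272 genes (13.3%) had exactly the same deposited value at 1 day and at 3 weeks. The number was 771 for 1 day and sham and 782 for 3 weeks and sham, and 154 genes had 1 value in all 5 pools. At the exon level 0.171% of the probe sets kept were identical at 1 day and 3 weeks. Of the identical genes 1479 had probe sets, and the probe-set median of a gene differed by 0.10 in absolute size at the median over these genes, against 0.40 in the genes that differed. In 5 of them the probe-set median was at least 2-fold apart. The cause was not tested. A gene-level difference of 0.00 therefore does not give the size of the probe-set difference.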
